A study of Mus musculus with 6 samples.

Results

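The short 3′ trailers of precursor tRNAs that end in a run of T were examined in hearts of mice with and without Elac2. Members were the sequences of the trailer class (tRF_1) that were at most 23 nt long and whose last 3 bases were all T. This rule took 127 of the 435 trailer sequences and of the 1336 tRNA fragment sequences in the table, and it used no measured value. Members that shared their first 12 nt were treated as 1 family, which gave 65 families, 25 of them with a single member and none with more than 5. Control hearts came from 3 mice with loxP-flanked Elac2 alleles (L/L in the titles, Elac2 +/+ in the genotype field) and knockout hearts from 3 mice that also carried cre (L/L, cre; Elac2 -/-). All mice were on a C57BL/6 background, and the labels have no field for age. Cre was driven by the muscle creatine kinase promoter, which is active in striated muscle, whereas the RNA was that of crude heart, which also holds other cell types. Each mouse gave 1 library of small RNA, size-selected for 15 to 35 nt, so p-values here measure the spread between 3 mice per group.

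RNA polymerase III makes precursor tRNAs that run past the mature 3′ end and stops at a stretch of T in the gene, so that the primary transcript ends in a run of U. ELAC2, the RNase Z of the nucleus and of mitochondria, cuts behind the discriminator base, to which CCA is added afterwards, and releases the piece from there to the terminator. Such a trailer begins at the RNase Z cut and ends where the polymerase stopped, unless an exonuclease or the La protein, which binds the U-tail of polymerase III transcripts, has altered or shielded the end.

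The sequences of the most abundant families are shown because the results turn on the length of the last run. They are written 5′ to 3′ in the DNA letters of the table, with the terminal T-run in capitals, and within a family each form extends the one before it by 1 T.
tRF_1_28: tcggaggctttgTTT
tRF_1_64: tcggaggctttgTTTT
tRF_1_93: tcggaggctttgTTTTT
tRF_1_145: gtggtgtgctagttaaTTT
tRF_1_177: gtggtgtgctagttaaTTTT
tRF_1_207: gtggtgtgctagttaaTTTTT
tRF_1_232: gtggtgtgctagttaaTTTTTT
tRF_1_265: gtggtgtgctagttaaTTTTTTT
tRF_1_7: acgtgtgcgatcTTT
tRF_1_42: acgtgtgcgatcTTTT
tRF_1_76: acgtgtgcgatcTTTTT
tRF_1_44: agcaggctcactcTTT
tRF_1_79: agcaggctcactcTTTT
tRF_1_118: gcagccggaattctgTTT
tRF_1_141: gcagccggaattctgTTTT
tRF_1_279: ttgggactggtactcctttaTTT
tRF_1_190: tttagtagtaccgtcccTTT
Each family is called here by its most abundant member, so the first 3 sequences are the tRF_1_64 family, the next 5 the tRF_1_177 family and the next 3 the tRF_1_42 family. The shortest forms of the tRF_1_64 and tRF_1_42 families are 15 nt long, the lower edge of the size selection, so a form of these with fewer T lay outside what was sequenced.

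The members together held 17091 counts, and they were very unequal. The 4 families of tRF_1_64, tRF_1_177, tRF_1_42 and tRF_1_44 held 86.2% of these counts and the 8 most abundant families 92.4%. At the other end, 67 members had fewer than 10 counts over the 6 libraries, and only 35 were counted in every library. Another 27 members were counted in control hearts alone and 20 in knockout hearts alone. A T-run of 3 ended 37 members with 5587 counts, and one of 4 ended 44 members with 8052 counts, or 47.1% of the total. Runs of 5 ended 26 members (3029 counts) and runs of 6 ended 10 (327 counts). Runs of 7 or more together held 96 counts. The longest run, of 11 T, was seen in tRF_1_176 with 1 count. The base before the run was G for 46.4% of counts, A for 28.4% and C for 25.1%, whereas by number of members C was the commonest, at 63 of 127.

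Some trailers also occurred with their start shifted by 1 base, which puts the shifted forms in a family of their own. In the reads of the tRF_1_64 family and of the same sequence less its first T (the tRF_1_14 family), the full start made up 99.1%, 99.0% and 99.0% in control replicates 1 to 3 and 99.0%, 98.7% and 98.5% in knockout replicates 1 to 3. An extra 5′ C on the tRF_1_177 trailer, which makes the tRF_1_228 family, accounted for 4.90%, 5.94% and 4.99% of the pair in control and 4.17%, 3.70% and 5.13% in knockout hearts. An extra 5′ A on the tRF_1_118 trailer (tRF_1_137, agcagccggaattctgTTT) accounted for 20.8% to 28.0% in control and 10.3% to 22.9% in knockout hearts. The groups overlapped in all 3 comparisons.

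At the limits of the rule, 6 sequences of 23 nt ended in TTT with 286 counts, and 2 of 24 nt with 39 counts. In all, 61 longer sequences ended in TTT with 3502 counts. Among trailers of at most 23 nt, 28 ended in a T-run of 2, just short of the rule, with 1392 counts.

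The library totals differed widely between the groups. Summed over all tRNA fragments, control libraries held 235046, 773252 and 378924 counts and knockout libraries 55946, 45354 and 61712, which is not the sequencing depth. The trailer class as a whole held 2767 to 6164 counts per control library and 3099 to 4636 per knockout library. Elac2 mRNA was not analysed here, so the genotype labels were not checked, and the table holds no marker of a cell type. In tissue RNA, fewer cells of a type and less RNA per cell cannot be told apart. A difference in the number of cells that make trailers was therefore not separated from a difference in trailers per cell.

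The summed raw counts of the short terminator-ending trailers overlapped between the groups. The raw sum was 4169, 1700 and 3163 in control replicates 1 to 3 and 3211, 2537 and 2311 in knockout replicates 1 to 3. The knockout libraries lay within the range of the controls, with means of 3011 ± 1242 (SD, n = 3) and 2686 ± 468 (SD, n = 3). Out of all trailer counts, members made up 67.6%, 61.4% and 74.7% in control and 69.3%, 73.8% and 74.6% in knockout hearts. These groups overlapped too, at 67.9% ± 6.63 against 72.5% ± 2.86 (SD, n = 3 each), although without control replicate 3 they did not, and the difference was then 7.99 percentage points. The 95% Wilson interval for control replicate 1 was 66.5% to 68.8%, which covers counting error only. Against all tRNA fragments the picture was another one. Members were 1.77%, 0.220% and 0.835% of a control library and 5.74%, 5.59% and 3.74% of a knockout library, with no overlap. The larger totals of the control libraries lie mostly in other fragment classes. Knockout over control, the mean total was 0.118-fold and the mean member count 0.892-fold. The higher share thus came with smaller totals and not with more member counts, and why the totals differed was not tested. With 3 mice against 3, an exact permutation test cannot go below p = 0.10, and no p is given for sums or shares over members.

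What differed within the set was the length of the T-run. Forms that ended in only 3 T took a smaller share of member counts in knockout hearts, and forms with 5 or more T took a larger one. The TTT forms made up 44.7%, 39.1% and 34.8% of member counts in control and 26.0%, 23.8% and 22.5% in knockout hearts. The lowest control library lay above the highest knockout library, and their 95% Wilson intervals (33.2% to 36.5% in control replicate 3, 24.5% to 27.5% in knockout replicate 1) did not meet. The group means were 39.5% ± 4.94 and 24.1% ± 1.75 (SD, n = 3 each).

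Forms with 4 T differed less, at 44.4%, 45.6% and 46.3% in control and 50.4%, 49.5% and 47.0% in knockout hearts, without overlap. The gap lay within counting error, since the nearest Wilson intervals met (44.6% to 48.1% in control replicate 3, 45.0% to 49.1% in knockout replicate 3). Forms with 5 T made up 9.76%, 13.9% and 16.6% in control and 21.0%, 23.3% and 25.8% in knockout hearts, or 13.4% ± 3.44 against 23.4% ± 2.42 (SD, n = 3 each). Here all knockout libraries lay above all controls, and the nearest intervals (15.3% to 17.9% in control replicate 3, 19.6% to 22.4% in knockout replicate 1) did not meet. Forms with 6 T were rare throughout, at 0.959% to 1.80% in control and 1.93% to 3.55% in knockout hearts, and those with 7 or more at 0.118% to 0.443% and 0.747% to 1.08%. For both of these classes the intervals of control replicate 3 and knockout replicate 1 met (1.39% to 2.33% and 1.51% to 2.47% at 6 T). The shares of 1 library add up to the whole, so the 5 length classes are not independent of each other.

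**Figure D1:**
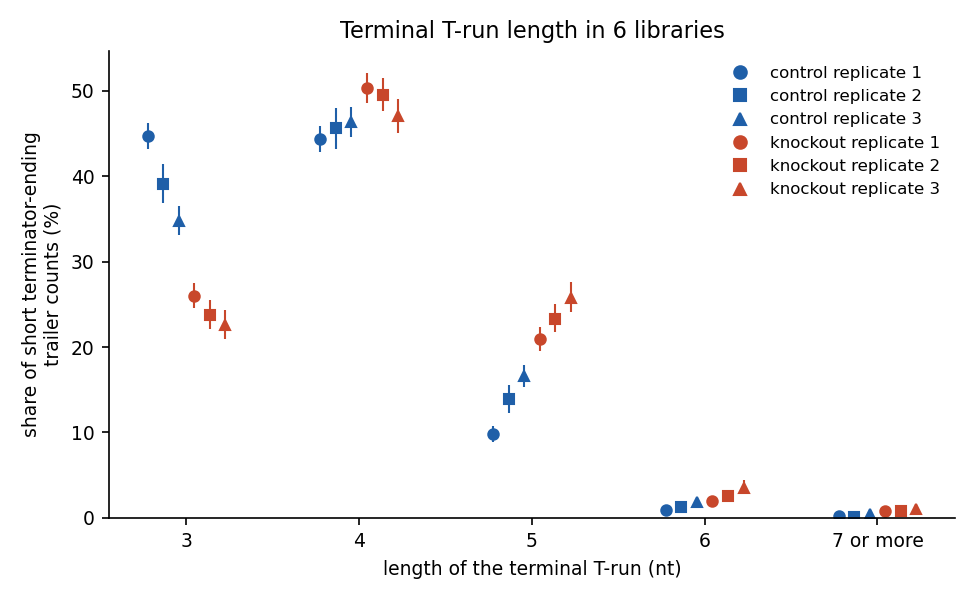
Share of member counts (%, vertical axis) by length of the terminal T-run (nt, horizontal axis) in each of the 3 control (blue) and 3 knockout (red) libraries; points are single libraries and bars are 95% Wilson intervals, which cover counting error only. Control libraries lie higher at 3 T (34.8% to 44.7% against 22.5% to 26.0%) and knockout libraries lie higher at 5 T (21.0% to 25.8% against 9.76% to 16.6%).

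Averaged over counts, the terminal run was 3.68, 3.78 and 3.87 nt long in control and 4.01, 4.07 and 4.14 nt in knockout hearts. The groups did not overlap, and the means were 3.77 ± 0.0948 and 4.07 ± 0.0629 nt (SD, n = 3 each), a difference of 0.298 nt. The whole trailer was longer as well, at 16.8, 17.0 and 17.2 nt in control and 17.4, 17.7 and 18.0 nt in knockout hearts. Of the 0.721 nt between the mean lengths, 0.422 nt lay in the part before the run. The tRF_1_177 trailer, which has a longer part before the run than the tRF_1_64 trailer, made up more of the knockout counts.

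The count-weighted T-run follows the abundant families. When the 24 families with a count in every library were weighted equally, it was 3.91, 3.89 and 4.03 nt in control and 3.99, 4.01 and 4.23 nt in knockout hearts, and the groups overlapped, with a difference of 0.133 nt. Without the tRF_1_177 family, which has long runs and a larger share in knockout hearts, the difference was 0.224 nt. Without the 4 largest families it was 0.413 nt, and in neither case did the groups overlap. The longer trailers that end in TTT, of 24 nt or more, showed no such separation, with 3.71, 3.94 and 3.89 nt in control and 3.93, 3.89 and 3.74 nt in knockout hearts. A longer mean length was not particular to members: 5′ fragments of at most 23 nt averaged 18.9, 19.0 and 18.5 nt in control and 19.5, 19.7 and 19.6 nt in knockout hearts, again without overlap. CCA-ending fragments and short trailers without the TTT end overlapped in length between the groups.

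Forms with the same bases before the run differ only in the number of T, so their ratio needs no scaling between libraries and does not depend on which family is abundant. In 61 of the 65 families all members had the same bases before the run; in the other 4 there were 2 such bodies, and these were kept apart here. Of the trailers of any length with at least 10 counts in every library and more than 1 run length, 8 could be compared, and in 3 of them (37.5%) the mean run was longer in every knockout library than in any control. All 3 were families of short members, out of 6; the 2 families of longer trailers overlapped.

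The most abundant of them, the tRF_1_64 family, had a mean run of 3.76, 3.69 and 3.72 nt in control and 3.90, 3.87 and 3.93 nt in knockout hearts. Its TTT form made up 35.1%, 41.7% and 40.5% of the family in control and 27.5%, 29.5% and 26.3% in knockout hearts, or 39.1% ± 3.52 against 27.8% ± 1.66 (SD, n = 3 each). Each step of 1 T was shifted. There were 1.52, 1.14 and 1.17 counts with 4 T for each count with 3 T in control hearts and 1.99, 1.84 and 2.07 in knockout hearts. Likewise there were 0.216, 0.224 and 0.257 counts with 5 T for each with 4 T in control and 0.329, 0.296 and 0.356 in knockout hearts. Neither ratio overlapped between the groups.

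The tRF_1_177 family reached from 3 to 7 T. Its mean run was 4.24, 4.31 and 4.32 nt in control and 4.44, 4.44 and 4.45 nt in knockout hearts, without overlap. The TTT form was a minor one here, at 13.6%, 11.6% and 11.8% of the family in control and 9.42%, 7.70% and 9.42% in knockout hearts. The Wilson intervals of its nearest libraries met (8.36% to 15.8% in control replicate 2, 7.58% to 11.7% in knockout replicate 1). From 4 to 5 T the ratio was 0.465, 0.653 and 0.620 in control and 0.877, 0.819 and 0.820 in knockout hearts, again without overlap. From 5 to 6 T the order was not kept: the ratio averaged 0.167 ± 0.0287 in control and 0.135 ± 0.0385 in knockout hearts (SD, n = 3 each), and the groups overlapped.

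The tRF_1_42 family had a mean run of 3.66, 3.81 and 3.84 nt in control and 3.94, 3.96 and 3.89 nt in knockout hearts. Its groups did not overlap, but the single ratios of 4 T to 3 T (1.12, 2.35 and 2.27 against 4.07, 2.51 and 2.21) overlapped. Its TTT form made up 43.0%, 27.4% and 27.2% of the family in control and 17.5%, 23.1% and 26.5% in knockout hearts. The nearest libraries lay within counting error, with Wilson intervals of 21.7% to 33.5% (control replicate 3) and 21.3% to 32.4% (knockout replicate 3). Of the reads of tRF_1_44 and tRF_1_79, the form with 3 T, tRF_1_44, was the major one, with 76.7%, 69.3% and 76.2% in control and 73.3%, 60.7% and 62.2% in knockout hearts, and the groups overlapped. Another member with this start, tRF_1_196 (agcaggctcactcttttcTTT), runs on past the first T and was left out of this ratio. The tRF_1_118 and tRF_1_228 families overlapped as well; they had as few as 26 and 18 counts in a library.

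**Figure D2:**
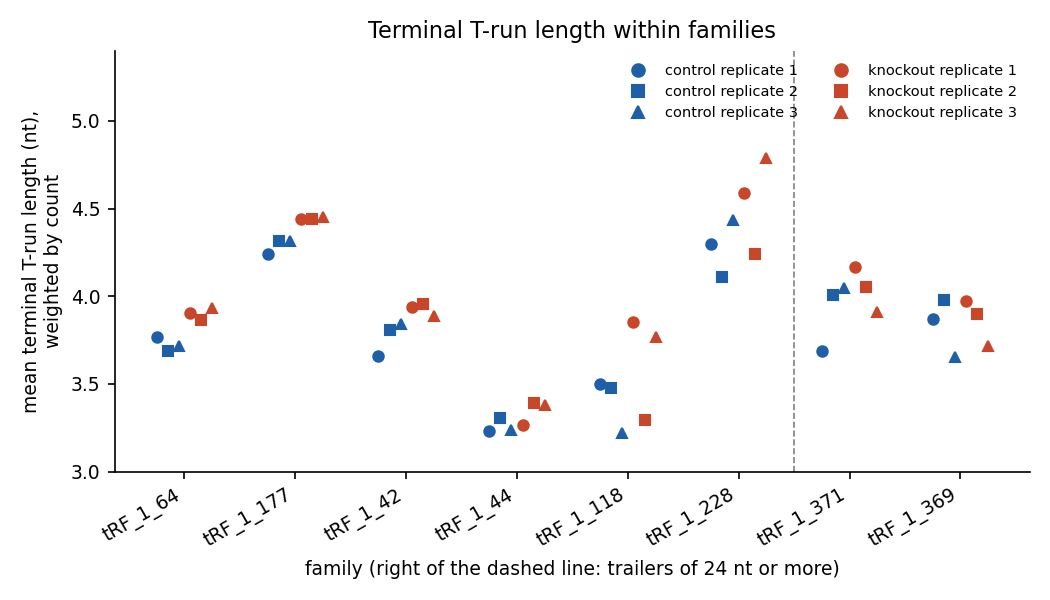
Mean length of the terminal T-run (nt, weighted by count, vertical axis, which starts at 3) in 8 trailers, each with the same bases before the run and named by its most abundant form (horizontal axis); each point is 1 control (blue) or knockout (red) library, and those right of the dashed line are trailers of 24 nt or more. In the tRF_1_64, tRF_1_177 and tRF_1_42 families every knockout library lies above every control library, and in the other 5 families the groups overlap.

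The families differed in how their abundance stood in the libraries, but none of the 22 tested passed the threshold. The tRF_1_64 family, the largest, had 1490, 1012 and 1670 raw counts in control and 1292, 938 and 800 in knockout hearts. The tRF_1_177 family had 390, 285 and 748 in control and 796, 870 and 881 in knockout hearts, so that every knockout library was above every control. As a share of member counts the latter was 9.35%, 16.8% and 23.6% in control and 24.8%, 34.3% and 38.1% in knockout hearts (16.6% ± 7.15 against 32.4% ± 6.86, SD, n = 3 each). The share of the tRF_1_64 family overlapped, at 35.7%, 59.5% and 52.8% against 40.2%, 37.0% and 34.6%. Out of all trailer counts, the tRF_1_177 family overlapped narrowly too. There it was 6.33%, 10.3% and 17.7% in control and 17.2%, 25.3% and 28.4% in knockout hearts.

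Control replicate 1 stood apart in several of the others. The tRF_1_42 family had 831 counts there against 84 and 217 in the other controls and 463, 333 and 238 in the knockouts. For the tRF_1_44 family these values were 675, then 75 and 137, then 242, 118 and 140. The tRF_1_118 family (213, 38 and 36 against 40, 27 and 26) and the tRF_1_279 family (116, 40 and 34 against 34, 25 and 18) had the same form. In raw count the tRF_1_42 groups overlapped through this library alone, while the tRF_1_44 groups overlapped without it too. The tRF_1_190 family was even, at 46, 38 and 50 against 45, 26 and 24, and the tRF_1_228 family had 20, 18 and 39 against 34, 33 and 47.

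**Figure D3:**
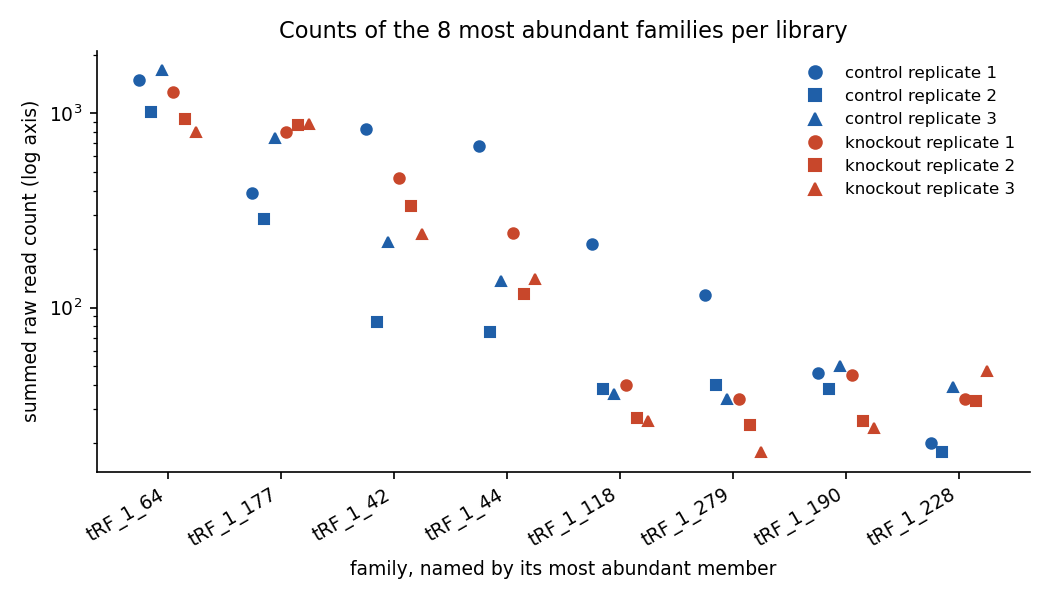
Summed raw count per library (log axis, not scaled for library total) of the 8 most abundant families (horizontal axis, each named by its most abundant member); each point is 1 control (blue) or knockout (red) library. The tRF_1_177 family is higher in all 3 knockout libraries (796 to 881 against 285 to 748), and control replicate 1 lies above the other 5 libraries in the tRF_1_42, tRF_1_44, tRF_1_118 and tRF_1_279 families.

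Families were tested with edgeR's quasi-likelihood method on summed counts, scaled by TMM (trimmed mean of M-values) and adjusted over all families of all classes. Of 22 member families tested, 0 passed an adjusted p of 0.05, against 15.6% of all 96 families tested; 2 had an unadjusted p under 0.05, and DESeq2 and limma-voom also called 0. The log2 fold change of knockout over control was 1.14 ± 0.56 (SE) for the tRF_1_177 family (edgeR adjusted p = 0.20) and −0.15 ± 0.54 for the tRF_1_64 family (adjusted p = 0.88). It was 0.55 ± 0.54 for the tRF_1_42 family and −0.14 ± 0.54 for the tRF_1_44 family. The tested families were split evenly, with 11 above 0 and 11 below. These signs depend on the scaling. With library totals alone the tRF_1_64 family stood at 2.24 (edgeR adjusted p = 0.030), and the median of all tested sequences was then 2.15 in place of 0.06.

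Of the single members, only 30 of 127 passed the filter on low counts. Its limit was relative to the library total and therefore lower for knockout libraries, so a member high in the knockout passed more easily and the counts below describe those 30 only. By edgeR, 1 member was higher in knockout hearts and 0 were lower, or 1 of 30 against 32.7% of all 254 sequences tested (15.7% for higher). A further 3 had an unadjusted p under 0.05, all of them higher. The groups did not overlap in CPM (a count relative to the TMM-scaled library total) for 11 of 30 members, against 43.7% of all sequences tested. The called share and the share without overlap were thus below the background of the table. Trailers outside the set had 1 higher of 13 (short, no TTT end) and 2 higher of 15 (24 nt or more), with 0 lower in each.

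The member called was tRF_1_265, the 23-nt form of the tRF_1_177 trailer with 7 T. It had 2, 0 and 5 counts in control and 14, 11 and 11 in knockout hearts. It passed the filter through the knockout libraries alone, so its call cannot be separated from the filter. All 3 knockout libraries lay above all controls, with a mean of 100.3 ± 4.99 CPM against 13.9 ± 17.2 CPM (SD, n = 3 each). Knockout over control, this was 2.85 ± 0.85 on the log2 scale (SE; edgeR adjusted p = 0.016). The authors' deposited table gives it 2.88 with an adjusted p of 0.072. The call was kept in 10 of 15 other settings and lost in the other 5, with no filter (edgeR adjusted p = 0.15), by DESeq2 (0.072) and without control replicate 2 (0.059), knockout replicate 1 (0.057) or knockout replicate 3 (0.066). All settings that kept the call also filtered on low counts, so they are no check on the part the filter played.

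The form with 5 T of the same trailer, tRF_1_207, was far more abundant and missed the threshold, though it passed in 7 of 15 other settings. It had 100, 94 and 237 counts in control and 314, 339 and 328 in knockout hearts, and every knockout library lay above every control. As a share of all trailer counts it was 1.62%, 3.40% and 5.60% in control and 6.77%, 9.85% and 10.6% in knockout hearts. Knockout over control, it stood at 1.69 ± 0.65 on the log2 scale (SE; edgeR adjusted p = 0.056). In the authors' deposited table it is the only one of the 58 members with an adjusted p there to fall under 0.05 (log2 fold change 1.68, adjusted p = 0.042). The forms beside it did not pass either: tRF_1_145 with 3 T stood at 0.92 ± 0.67, tRF_1_177 with 4 T at 1.20 ± 0.63 and tRF_1_232 with 6 T at 1.48 ± 0.73 (SE; edgeR adjusted p = 0.35, 0.17 and 0.15).

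The tRF_1_64 trailer, in contrast, had forms on both sides of 0, none of which passed. The form with 3 T, tRF_1_28, had 523, 422 and 677 counts in control and 355, 277 and 210 in knockout hearts. In raw counts its groups did not overlap, and as a share of trailer counts it was 8.48%, 15.3% and 16.0% in control and 7.66%, 8.05% and 6.78% in knockout hearts. In CPM its groups did overlap, at 2207, 2552 and 4490 in control against 2688, 2443 and 1866 in knockout hearts. The form with 4 T, tRF_1_64, the most abundant of all members, had 795, 482 and 790 counts in control and 705, 510 and 435 in knockout hearts, which overlapped. The form with 5 T, tRF_1_93, made up 2.79%, 3.90% and 4.79% of trailer counts in control and 5.004%, 4.39% and 5.002% in knockout hearts, which overlapped as well. Their log2 fold changes were −0.40 ± 0.59, 0.25 ± 0.58 and 0.71 ± 0.60 (SE), with edgeR adjusted p of 0.66, 0.79 and 0.41.

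Other abundant trailers showed the same order of forms with larger spread. For acgtgtgcgatc the form with 3 T, tRF_1_7, had 357, 23 and 59 counts in control and 81, 77 and 63 in knockout hearts. Its form with 4 T, tRF_1_42, had 401, 54 and 134 against 330, 193 and 139, and that with 5 T, tRF_1_76, had 73, 7 and 24 against 52, 63 and 36. In raw count, control replicate 1 was the highest library for each of the 3 forms. In CPM this held for tRF_1_7 only. There tRF_1_42 had 1692 in control replicate 1 against 2499 in knockout replicate 1. In CPM the groups of tRF_1_76 did not overlap, at 308, 42.3 and 159 in control against 394, 556 and 320 in knockout hearts. The log2 fold changes were −0.14 ± 0.75, 0.90 ± 0.67 and 1.30 ± 0.76 (SE; edgeR adjusted p = 0.93, 0.36 and 0.22). For agcaggctcactc, tRF_1_44 with 3 T had 509, 52 and 99 against 173, 71 and 84 counts, and tRF_1_79 with 4 T had 155, 23 and 31 against 63, 46 and 51. Their log2 fold changes were −0.22 ± 0.71 and 0.41 ± 0.71 (SE; edgeR adjusted p = 0.87 and 0.72), and the groups overlapped in both.

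The members with the lowest fold changes all ended in 3 or 4 T, and none passed the test. They were tRF_1_137 at −1.30 ± 0.77 (SE; edgeR adjusted p = 0.23), tRF_1_118 at −1.16 ± 0.75 (0.28), tRF_1_127 (tggtgggtgcatatgTTT) at −1.09 ± 0.86 (0.39) and tRF_1_141 at −0.69 ± 0.82 (0.58). Both tRF_1_118 and tRF_1_137 had their highest count in control replicate 1, 118 and 45, against 9 to 28 in the other controls and 2 to 19 in the knockouts. At the upper end, beside tRF_1_265 and tRF_1_207, stood tRF_1_228 (cgtggtgtgctagttaaTTTTT), with 5, 5 and 15 counts in control and 18, 13 and 37 in knockout hearts (1.96 ± 0.80 SE; edgeR adjusted p = 0.073). The other was tRF_1_111 (accgcgtgcattccTTTT), with 4, 2 and 1 against 5, 6 and 5 counts (1.80 ± 0.72 SE; edgeR adjusted p = 0.067).

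Ordered by T-run, the fold changes of the tested members are given as a description only, since the filter itself favoured high knockout values. Of the 9 tested members with 5 or more T, 5 reached its limit in knockout libraries alone (among them tRF_1_265 and tRF_1_228), as did 5 of 12 with 4 T and 0 of 9 with 3 T, so their sign was partly set by it. The median was −0.40 for 9 members with 3 T (2 above 0, 7 below), 0.37 for 12 with 4 T (9 above, 3 below), 1.30 for 5 with 5 T and 1.42 for 4 with 6 or more T, all 9 of the latter above 0. For all 30 it was 0.43, and for all 254 sequences 0.06. The sign depends on the scaling. With counts scaled by the summed trailer count the medians ran from −0.82 for 3 T to 1.12 for 6 or more T. With library totals alone they ran from 1.29 to 3.60, and all 30 members were above 0. A change of scaling moves the fold changes of the same 30 members by similar amounts, so the order of the medians is not checked by it. Members that differ by exactly 1 T can be compared directly. Of 55 such pairs in the set, 13 had both forms tested, from 8 families, and in 12 of them the longer form had the higher fold change. The difference ranged from −0.22 (tRF_1_207 to tRF_1_232) to 1.63 (tRF_1_199 to tRF_1_228), with a median of 0.49. With 3 of the 4 other scalings tried, 11 of 13 had this direction, and with library totals 12, which for the same reason is no separate check. Of 9 pairs, from 5 families, in which both forms also reached the limit in a control library, 8 had the longer form higher (median difference 0.47). Those of the tRF_1_64, tRF_1_177 and tRF_1_42 trailers rest on the same counts as the ratios given above. Pairs that share a form or a family are not independent, and the difference within each pair was not tested by itself.

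**Figure D4:**
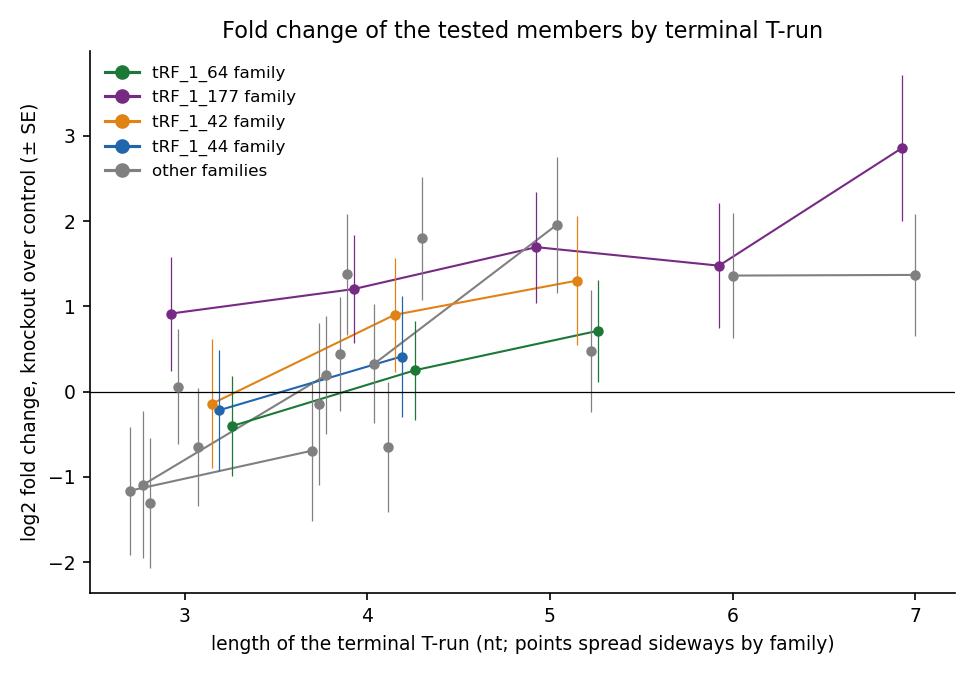
Log2 fold change of knockout over control (edgeR, TMM scaling; bars are ± SE) against the length of the terminal T-run (nt) for the 30 members tested; points are members, shifted sideways by family for legibility, and lines join forms of 1 trailer. The medians run from −0.40 at 3 T to 1.42 at 6 or more T, among members that passed a filter favouring high knockout counts, and tRF_1_265 of the tRF_1_177 family, at 7 T, is the only member that passed the adjusted threshold.

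Reads with the start of a family also ended before or past the run of its most abundant member. In the tRF_1_64 family, 1.32%, 2.50% and 1.76% of reads with this start went on past the run in control hearts and 3.15%, 2.39% and 4.31% in knockout hearts, which overlapped. None of the tRF_1_177 reads did. In contrast, the tRF_1_190 trailer mostly ran on into longer forms, and the reads that stopped in the run were 14.4% to 23.04% in control and 13.3% to 21.95% in knockout hearts. For the tRF_1_279 trailer most reads stopped before the run: those that ended in it were 21.65%, 32.5% and 33.0% in control and 10.7%, 21.70% and 13.8% in knockout hearts, which overlapped narrowly. The reads that stopped before it include 1 further member, tRF_1_154 (ttgggactggtactccTTT), which ends in an earlier TTT.

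For few members could a place in the genome be given. Matched whole to GENCODE transcripts and RefSeq promoter windows of GRCm38 (the assembly of mm10), 20 members had a match and 107 did not. For 4 members the match began at the base right after a RefSeq tRNA gene, of 430 such genes, which is where a trailer starts. Behind the asparagine tRNA gene n-TNgtt7 (chr10:80249159-80249232, plus strand), within the promoter window of Ndufs7, a gene for a subunit of mitochondrial complex I, lay tRF_1_3 (chr10:80249233-80249247) and tRF_1_39, which has 1 more T.
tRF_1_3: accacagcgacTTTT
tRF_1_39: accacagcgacTTTTT
Of these, tRF_1_3 had 21, 4 and 6 counts in control and 7, 4 and 1 in knockout hearts (log2 fold change −0.65 ± 0.77 SE, edgeR adjusted p = 0.58), and the groups overlapped. Behind the serine tRNA gene n-TSaga9 (chr4:10874064-10874145, plus strand) lay tRF_1_17 (chr4:10874146-10874160) and tRF_1_52. Together these had 5 counts, and tRF_1_17 also matched transcripts of Wnk1. A match of this length does not trace a read to 1 gene copy.
tRF_1_17: gaagggaatgTTTTT
tRF_1_52: gaagggaatgTTTTTT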

How the data were processed

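Small RNA of 3 control and 3 knockout hearts had been sequenced with 4 technical replicates per mouse, per the labels' protocols. The files hold 1 column per mouse; the sources used here do not say how its runs were merged. Bowtie2 2.2.9, cutadapt 1.1.4, DESeq2 1.16.1 and build mm10 are named in the submitters' processing notes. Where the set of fragment sequences came from, and how a read that fits nested forms was assigned: not given in the sources used here.

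The authors deposited raw counts per sequence, which are the values used. Their deposited normalized signal equals the counts scaled by 1 constant in each library and was only checked. The authors' deposited comparison table gives log2 fold changes, a Wald score and p-values, with knockout over control in sign.

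Counts of all 1336 sequences were tested with edgeR 4.0.16 (R 4.3.3, quasi-likelihood, TMM, filterByExpr with a minimum count of 10) with Benjamini-Hochberg adjustment over the 254 that passed. Families were summed by the first 12 nt (the last 12 for CCA-ending fragments) and tested likewise. The members, lists and tests were chosen with earlier results of these data known. Members named in the text are the 12 with the highest mean CPM, any member called, and the 4 highest and 4 lowest fold changes; families are the 8 most abundant. The members tRF_1_279, tRF_1_190, tRF_1_3, tRF_1_39, tRF_1_17, tRF_1_52, tRF_1_14, tRF_1_154, tRF_1_196, tRF_1_199 and tRF_1_176 are named beside these, for their family, start, run or position. Exact permutation tests of sums and shares over members had been planned and are not given, since 3 against 3 cannot go below p = 0.10. The edgeR step was also run on simulated counts with a single dispersion for all sequences, which is simpler than these data. Its outcome is not given, and no result here rests on it. Sequences were matched by exact string search in Python 3.11.15. DESeq2 1.42.0, limma-voom (limma 3.58.1), other scalings and filters, the replicate number as a block and each library left out were the alternatives. Wilson intervals are at 95%.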

Additional observations from a re-analysis of the deposited data

How the results depend on the processing

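The count of called members, 1 as reported, was 17 with library totals alone, 5 with upper-quartile scaling, 0 with no filter (6 at an unadjusted p under 0.05), 3 with a filter of 10 counts in 3 libraries and 2 with limma-voom. It was 1 with DESeq2's size factors and with the summed trailer count (tRF_1_265 in both), and 1 by DESeq2, where this was tRF_1_207 (adjusted p = 0.042) and no longer tRF_1_265 (0.072). With the replicate number as a block it was 2, and 0 families were called. Deviations of same-numbered libraries correlated at −0.0054, 0.289 and 0.0452, and those of differently numbered ones at −0.300 to 0.203. So few values show no clear pairing of the mice by replicate number and cannot exclude one. Leaving out each library gave 0 to 4 called members, 4 without control replicate 1 or 3 and 0 without control replicate 2, knockout replicate 1 or knockout replicate 3. Called families were 11 with library totals and 0 to 1 with each library left out; the other settings gave 0. With library totals the tRF_1_64 and tRF_1_190 families reversed, both to 2.24 (edgeR adjusted p = 0.030 and 0.049), as all tested sequences moved to a median of 2.15, from 0.06. That median was 0.43 with upper-quartile scaling and −0.39 with the summed trailer count. The difference in the members' share of trailer counts, 4.61 points, was 13.9 when the last 4 bases had to be T, −1.62 for trailers of at most 20 nt, and 1.37 to 7.99 with each library left out. The difference in T-run, 0.298 nt, was 0.133 with equal family weights, 0.385 without the member tRF_1_64 and 0.250 to 0.345 with each library left out. In settings added after seeing the data, it was 0.224 without the tRF_1_177 family and 0.413 without the 4 largest families. Without the tRF_1_64, tRF_1_42 or tRF_1_44 family it was 0.301 to 0.316. The difference in length, 0.721 nt, was 0.124 with equal weights and 0.579 to 0.885 with each library left out. The summed raw count differed by −324, by −980 to 255 with each library left out, and by 4.08 points as a percent of all fragments. Of 393 other settings of named members and families, 331 kept direction and call, 26 gained a call, 29 moved, 5 lost the call and 2 reversed. The cause of these shifts was not tested. A count of 0 allows up to 3 counts, so the 67 members under 10 counts can show no difference of modest size.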
